A study of Homo sapiens
Mus musculus with 8 samples.

Results

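The same mouse T cell line, EL4, was counted from either end of its messenger RNA: in 4 libraries of the 10x Genomics Chromium 3′ v3 kit and in 2 libraries of the 5′ v1 kit. EL4-like cells were selected on measured values. A barcode was kept with at least 5000 unique molecular identifiers (UMIs, tags that mark single captured molecules), over 80% of them mouse, under 10% of its mouse UMIs from mitochondrially encoded genes, and Lgals1, S100a6 and Perp together holding at least 0.05% of its mouse UMIs and at least 5 times the UMIs of Epcam, Cd24a, Ctss and Ckap4. The rule took 7825 of the 22247 barcodes with at least 5000 UMIs in these 6 libraries (23147 in the 7 libraries analysed), 1921 from 5′ v1 and 5904 from 3′ v3. UMIs were summed over the chosen cells of each library, so the library is the unit of every comparison.

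All libraries held the same kind of sample, cultured cells of 4 lymphocyte lines in equal parts. These were the mouse lines EL4 (CD4+ T cells) and IVA12 (B cells) and the human lines Jurkat (CD4+ T cells) and TALL-104 (CD8+ T cells). The paper describes no treatment apart from culture. The medium differed between the lines, and that of TALL-104 held interleukin-2. The labels set a targeted capture of 5000 and 2000 cells for 5′ v1 replicates 1 and 2, of 3000 cells for 3′ v3 replicates 1 and 2 and of 6000 cells for replicates 3 and 4. Both 5′ v1 libraries were made from the same mixed cells. The 3′ v3 libraries were made from 2 other mixtures, here called preparation F (replicates 1 and 3) and preparation G (replicates 2 and 4). Kit and cell preparation therefore cannot be told apart, each value describes a culture as well as a kit, and p-values measure only the spread between these libraries. A single 3′ v2 library (replicate 2, 446 EL4-like cells, a further preparation) is given beside some results without a test.

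Both kits prime reverse transcription at the poly(A) tail. In the 3′ kits the cell barcode sits on that primer and the sequence next to the tail is read, whereas in the 5′ kit the barcode is added by template switching where the reverse transcriptase reaches the cap, and the start of the transcript is read. The classes compared here differ at their ends: replication-dependent histone genes, which lie in clusters, make mRNAs that end in a stem-loop and mostly carry no poly(A) tail, histone variants make ordinary polyadenylated mRNAs, ribosomal protein and elongation factor mRNAs begin with a short run of pyrimidines that controls their translation, and the mitochondrial genome is transcribed as long precursors that are cut into short polyadenylated mRNAs.

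EL4-like cells numbered 1255 (replicate 1) and 666 (replicate 2) for 5′ v1, and 1445, 550, 2678 and 1231 for 3′ v3 in replicate order. Each library held between 15903555 and 77943829 mouse UMIs from them, with a median of 25392 to 29430 UMIs a cell. Within 500 UMIs of the lower limit, 0 to 12 cells a library were inside and 2 to 17 outside, and within 1 percentage point of the mitochondrial limit 6 to 34 were inside and 4 to 20 outside. The selecting genes Lgals1, S100a6 and Perp held a median of 0.26% and 0.207% of mouse UMIs in 5′ v1 and of 0.228%, 0.132%, 0.216% and 0.128% in 3′ v3. Of barcodes within the UMI, mouse and mitochondrial limits, 283 of 2200 and 142 of 1098 in 5′ v1 met neither the EL4 rule nor its reverse for IVA12. In 3′ v3 these were 258 of 2082, 297 of 999, 657 of 4350 and 562 of 2108, a larger share in preparation G. The part of this loss in differences between preparations was not tested. The EL4 label was checked on 11 other T cell markers, among them Cd3e, Cd3g, Lat and Lck, and all 11 were above 10 CPM (UMIs scaled to a library of 1000000 mouse UMIs) in each of the 6 libraries. The 11 B cell markers not used by the rule were all below 10 CPM, with a summed level of 10.8 and 9.91 CPM in 5′ v1 and 13.2, 12.8, 24.1 and 23.7 CPM in 3′ v3. Human UMIs, which EL4 cells cannot make, took a median of 0.043% and 0.0291% of a cell's UMIs in 5′ v1 and 0.435%, 0.169%, 0.937% and 0.294% in 3′ v3, higher in every 3′ v3 library. The part of RNA from outside the cell in the results below was not tested. In 3′ v3 replicate 4, 6 barcodes of over 3 times the median UMIs held 7.51% of the mouse UMIs. At most 3 barcodes were shared between any pair of libraries compared. T cell receptor segments were not among the genes counted.

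Of 10714 genes tested, 885 (8.26%) were called higher in 3′ v3 and 672 (6.27%) were called higher in 5′ v1. A gene was called when edgeR's quasi-likelihood test gave a Benjamini-Hochberg adjusted p under 0.05, the fitted log2 difference was at least 1, and the mean of each 3′ v3 preparation taken alone was also at least 1 beyond the 5′ v1 mean. A further 616 genes passed the test with a fitted difference of at least 1 but not in both preparations, and are not called. All log2 differences below are 3′ v3 minus 5′ v1, on counts scaled by edgeR's TMM factors, with ± giving the standard error, and adjusted p-values are from this test over all genes. The median log2 difference of all genes was 0.05. All 3′ v3 libraries were above both 5′ v1 libraries for 3426 of the 10714 genes and below both for 3250, so kits mostly did not overlap. Among genes at 1 CPM or more in a library of each kit (10118 genes), 691 (6.83%) were called higher in 3′ v3 and 523 (5.17%) higher in 5′ v1. With the libraries of each preparation summed, so that 2 preparations stand against 1, the counts were 337 and 306. Both counts also rested on having 2 5′ v1 libraries: without replicate 2 they fell to 424 and 398, without replicate 1 they were 630 and 505, and 380 and 345 of the genes called kept their call whichever library was left out. With a 5′ v1 library left out, or with the libraries of each preparation summed, 5′ v1 has 1 sample. The spread in those fits comes from 3′ v3 alone, and none within 5′ v1 is measured. This limits each such p-value, count and lost call, here and below. The share of genes called higher in 5′ v1 was 13.5% among genes of 1 to 5 CPM and 3.32% among genes of 100 to 1000 CPM, against 10.7% and 12.1% called higher in 3′ v3.

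**Figure D1:**
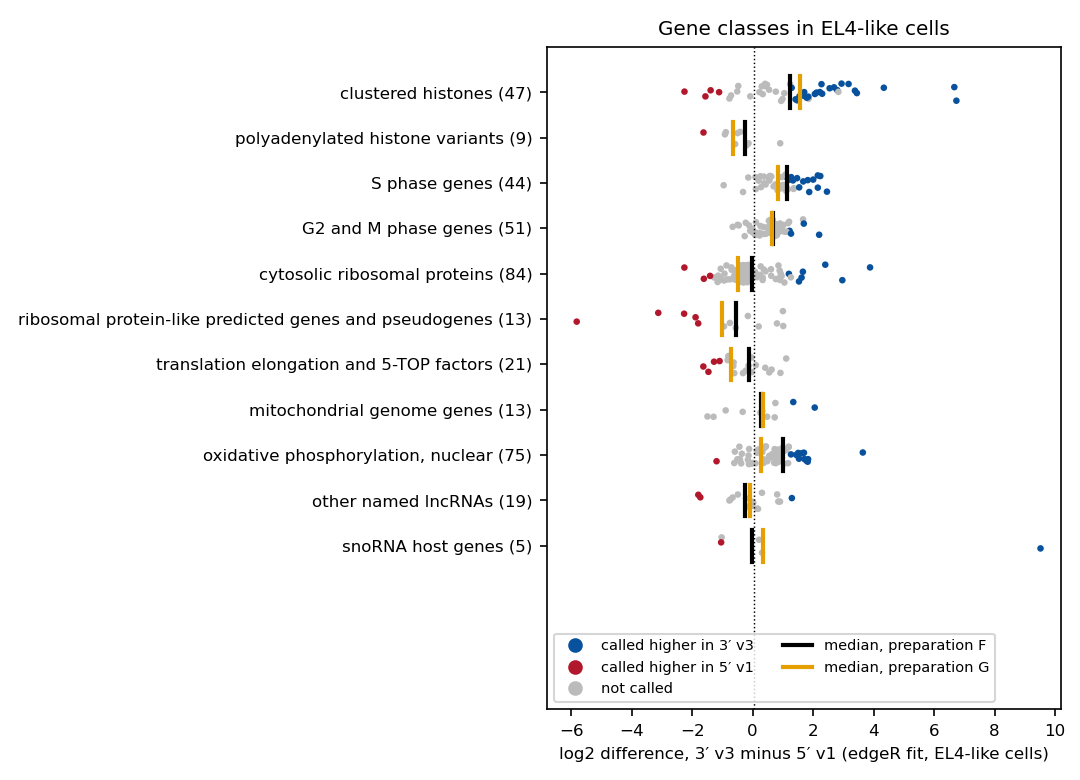
Log2 difference between 3′ v3 and 5′ v1 (x axis) of each tested gene in 11 classes (rows, with the number of genes tested). Blue and red points are genes called higher in 3′ v3 and in 5′ v1, grey points were not called, the black and orange bars are the class medians with preparation F and preparation G, and the dotted line is the median of all genes (0.05). The clustered histones span from -2.25 to 6.74, with 19 of the 47 at 1 CPM or more in one kit alone, and the bars of preparation F and G stand apart for the ribosomal proteins and the nuclear oxidative phosphorylation genes.

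A class counted as alike when its median with each preparation lay on the same side of that of all genes, by at least 0.25. Apart from the mitochondrially encoded genes, 4 of the classes plotted were alike. These were clustered histones, S phase genes and G2 and M phase genes toward 3′ v3, and ribosomal pseudogenes toward 5′ v1. However, 19 of the 47 clustered histones and 3 of the 13 ribosomal pseudogenes reached 1 CPM in 1 kit alone. Without such genes the medians relative to all genes were 0.62 and -0.39, against 1.42 and -0.8 with them. Whether these 2 classes stay alike in both preparations without such genes was not tested. In the 3′ v2 library the medians of these 4 classes against 5′ v1, relative to all genes, were 0.35, 0.76, 0.081 and 1.16, so the pseudogenes lay on the opposite side there. In IVA12-like B cells of the 3′ v3 and 5′ v1 libraries they were 0.19, 0.41, 0.3 and -0.61, and the difference of these medians between lines was not tested. The ribosomal proteins, translation factors, histone variants, nuclear oxidative phosphorylation genes and both lists of noncoding RNAs were not alike in the preparations. The mitochondrially encoded genes met the limit of 0.25 (0.28 with preparation F and 0.26 with preparation G). The rule that chose the cells limited them as a sum, so no direction is read.

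The clustered histone genes were called mostly toward 3′ v3. Of 68 in the gene list 47 were tested, of which 23 (48.9%) were called higher in 3′ v3, 4 (8.51%) higher in 5′ v1 and 20 in neither direction, beside 8.26% and 6.27% of all genes. Their median log2 difference, taken relative to that of all genes here and below, was 1.42, 1.25 with preparation F and 1.49 with preparation G. Part of this came from genes that reached 1 CPM in one kit alone (19 of the 47). Of the 28 histone genes at 1 CPM or more in a library of each kit, 8 were called higher in 3′ v3 and 4 higher in 5′ v1, beside 6.83% and 5.17% of all such genes, and their median was 0.62, below the 0.96 of the S phase genes. The class held 0.0272% and 0.0237% of mouse UMIs in 5′ v1 and 0.065%, 0.146%, 0.117% and 0.152% in 3′ v3, with no overlap between the kits. Most of the rise lay in H2A genes (means of 0.00245% in 5′ v1 and 0.0558% in 3′ v3) and H1 genes (0.0115% and 0.0503%). The H2A share in 3′ v3 was mostly that of 1 gene, Hist1h2ap, at a mean of 456 CPM. Beside it, Hist2h2ac had a mean of 24.6 CPM and Hist2h2aa1 of 13.9 CPM in 3′ v3. The shares of H3 and H4 genes overlapped between kits.

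Genes of the H2A histones, which with H2B form dimers of the nucleosome core, were called higher in 3′ v3 for 6 of 12 tested, beside 8.26% of all genes, and for 3 of the 6 at 1 CPM or more in a library of each kit, beside 6.83% of all such genes. Hist1h2ap had 5.22 and 3.68 CPM in 5′ v1 and 249.9, 436, 711 and 428 CPM in 3′ v3, in the order of the replicates, here and below. Every 3′ v3 library was far above both 5′ v1 libraries, with a log2 difference of 6.67 ± 0.56, adjusted p = 0.00066, and the 3′ v2 library had 4017 CPM. Hist2h2aa1 was almost absent from the 5′ v1 counts, with 4 and 2 UMIs in 5′ v1 and 122, 323, 1048 and 821 UMIs in 3′ v3. As a rate per mouse UMI it was 109-fold higher in 3′ v3 (exact 95% interval 50.1 to 298, counting error only), and its call was lost without either 5′ v1 library (adjusted p = 0.053 without replicate 1 and 0.055 without replicate 2). Hist2h2ac rose from 2.71 and 1.7 CPM in 5′ v1 to 14.6, 30.2, 20.2 and 33.2 CPM in 3′ v3 (3.45, adjusted p = 0.0017). H2A genes share much of their coding sequence, and a read that fits several copies equally well is not counted, so how UMIs divide among named copies is uncertain.

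Linker histone H1 genes, whose proteins bind the DNA between nucleosomes, were all higher in 3′ v3, and more so in preparation G. Hist1h1b had 74.3 and 53.8 CPM in 5′ v1 and 191, 377, 264 and 411 CPM in 3′ v3, without overlap, a log2 difference of 2.28 ± 0.37, adjusted p = 0.0038. Hist1h1e had 37.9 and 29.6 CPM in 5′ v1 and 48, 141, 61.4 and 145 CPM in 3′ v3 (1.55, adjusted p = 0.049), and was not called because preparation F alone stood only 0.7 above 5′ v1. Hist1h1b and Hist1h1a were called and Hist1h1c, Hist1h1d and Hist1h1e were not, each of the 3 falling short in preparation F. Leaving out a 5′ v1 library ended the result for Hist1h1c, Hist1h1d and Hist1h1e (adjusted p = 0.18, 0.085 and 0.17 without replicate 1, and 0.2, 0.13 and 0.27 without replicate 2). Leaving out 3′ v3 replicate 4 did so for Hist1h1c and Hist1h1e (adjusted p = 0.052 and 0.072), and replicate 2 for Hist1h1e (adjusted p = 0.069). With 5′ v1 replicate 2 left out, the adjusted p of Hist1h1b was 0.062 and that of Hist1h1a 0.15, and without replicate 1 that of Hist1h1a was 0.093.

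The histone genes called higher in 5′ v1 were 2 of H3, Hist1h3d and Hist1h3e, 1 of H4, Hist1h4i, and 1 of H2B, Hist3h2ba. The last lost its call without 5′ v1 replicate 2 (adjusted p = 0.077) and, by its fold, without 3′ v3 replicate 1 or 4 (adjusted p = 0.015 and 0.014). Hist1h3e had 22.8 and 18.2 CPM in 5′ v1 and 5.2, 6.74, 8.08 and 7.77 CPM in 3′ v3 (-1.56 ± 0.2, adjusted p = 0.0019). Hist1h4i had 32.1 and 33.9 CPM in 5′ v1 and 14.4, 8.98, 14.4 and 12.4 CPM in 3′ v3 (-1.39 ± 0.2, adjusted p = 0.0026). Both had every 3′ v3 library below both 5′ v1 libraries. Other genes of the same core histones went the opposite way: Hist1h4d, which makes the same H4 family protein as Hist1h4i, had 3.46 and 2.55 CPM in 5′ v1 and 8.43, 26.6, 16 and 33.5 CPM in 3′ v3 (2.8, adjusted p = 0.011). That call was lost without either 5′ v1 library (adjusted p = 0.078 without replicate 1 and 0.11 without replicate 2). The H3 class median was 1.49 over the 9 genes tested and -1.2 over the 4 at 1 CPM or more in a library of each kit, so the direction of H3 as a class depends on genes of very low counts.

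**Figure D2:**
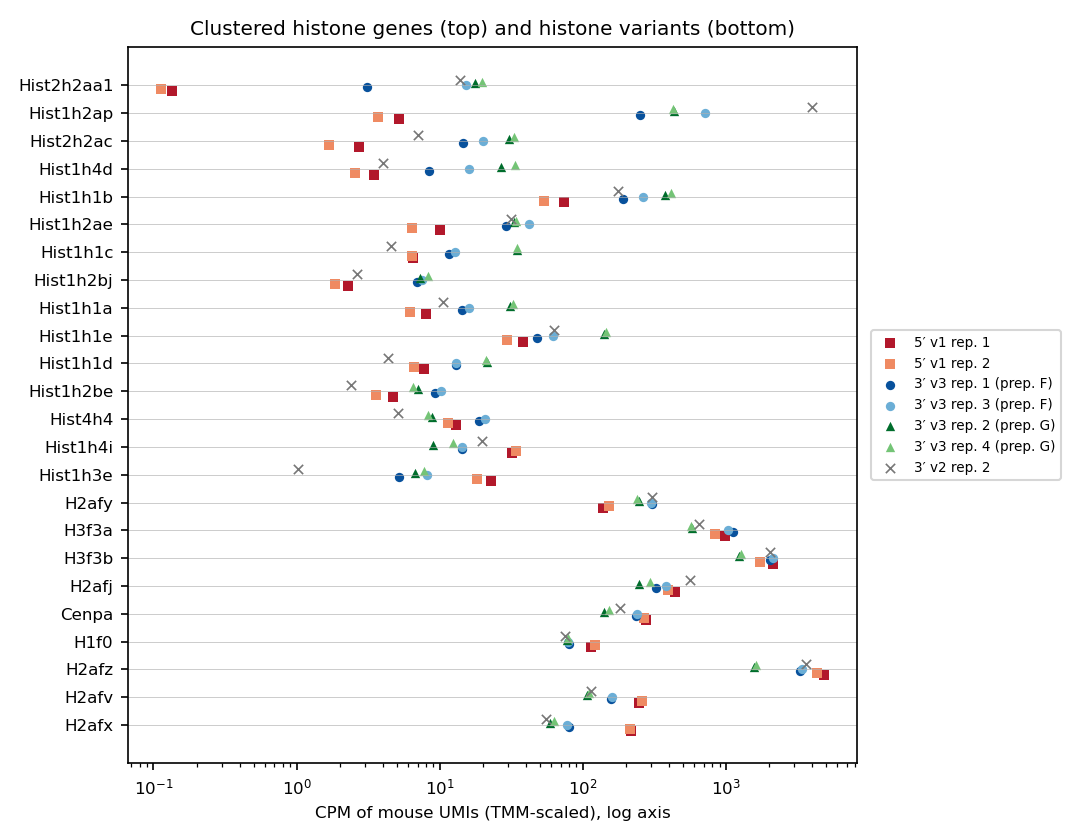
Level in CPM (log axis) of the 15 clustered histone genes with a mean of at least 5 CPM, and of the 9 histone variants tested, in the 2 5′ v1 libraries (squares), the 3′ v3 libraries of preparation F (circles) and G (triangles) and the 3′ v2 library (crosses). Hist1h2ap runs from 3.68 to 5.22 CPM in 5′ v1 and from 249.9 to 711 CPM in 3′ v3, and H2afx lies at 215 and 217 CPM in 5′ v1 and at 80.1 CPM or less in every 3′ v3 library.

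Of 9 tested histone variants with polyadenylated mRNAs, 1 (11.1%) was called higher in 5′ v1 and none higher in 3′ v3, beside 6.27% and 8.26% of all genes, and 8 of 9 had differences below 0. H2afx, the variant phosphorylated at DNA breaks, had 217 and 215 CPM in 5′ v1 and 80.1, 59, 77.9 and 62.8 CPM in 3′ v3 (-1.62 ± 0.16, adjusted p = 0.00088). H2afv and H1f0 passed the test at -0.92 and -0.58 (adjusted p = 0.014 and 0.0084), and H2afy, which encodes macroH2A, passed it in the other direction at 0.91 (adjusted p = 0.0071). Each of these 3 missed an adjusted p of 0.05 when 1 of the 5′ v1 libraries was left out. The class median was -0.23 with preparation F and -0.73 with preparation G, and the first is under the limit of 0.25 in size that a class had to reach in both preparations to count as alike.

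Genes of DNA replication were called toward 3′ v3. Of 44 S phase genes tested, 15 were called higher in 3′ v3 and none lower, which is 34.1% beside 8.26% of all genes, and 41 had differences above 0, with a median of 0.94 (1.15 with preparation F and 0.78 with preparation G). Subunits of the MCM helicase, which opens the DNA at replication forks, were among them. Mcm3 had 55.2 and 44.5 CPM in 5′ v1 and 270.0, 281, 281 and 264 CPM in 3′ v3 (2.46 ± 0.17, adjusted p = 0.00048). Mcm7 had 34.5 and 31 CPM in 5′ v1 and 159, 143, 168 and 148 CPM in 3′ v3 (2.24 ± 0.15, adjusted p = 0.00048). Nasp, a chaperone for histones H3 and H4, had 48.5 and 36.2 CPM in 5′ v1 and 184, 187, 194 and 190.1 CPM in 3′ v3 (2.16 ± 0.17, adjusted p = 0.00061). Both kinds of library stood apart for these 3. The replication clamp Pcna had 60.3 and 40.6 CPM in 5′ v1 and 139, 149.6, 136 and 135 CPM in 3′ v3 (1.47, adjusted p = 0.0019). It did not overlap between kits either. Of 51 G2 and M phase genes, 4 were called higher in 3′ v3 and none lower, which is 7.84% beside 8.26% of all genes, with a median of 0.61. S phase genes held 0.252% and 0.226% of mouse UMIs in 5′ v1 and 0.424%, 0.497%, 0.414% and 0.486% in 3′ v3. Whether the cells of the 3′ v3 preparations cycled faster or the kits count these transcripts differently cannot be told apart here, and the part of the cell cycle in the histone result was not tested.

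The 86 genes of the cytosolic ribosome together held 35.1% and 34.7% of mouse UMIs in 5′ v1 and 29.5%, 27.6%, 31.7% and 28% in 3′ v3, lower in every 3′ v3 library and highest in the 3′ v2 library (39.4%). Of 84 tested, 7 were called higher in 3′ v3 and 3 higher in 5′ v1, which is 8.33% and 3.57% beside 8.26% and 6.27% of all genes, near the background toward 3′ v3 and below it toward 5′ v1. The class median was -0.03 with preparation F and -0.55 with preparation G, so the preparations were not alike and the class as a whole is not assigned to either end.

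Among the genes called higher in 3′ v3, Rps29 had 817 and 603 CPM in 5′ v1 and 4133, 4149.9, 9516 and 4389 CPM in 3′ v3 (2.97 ± 0.47, adjusted p = 0.0035). Rpl38 had 641 and 444 CPM in 5′ v1 and 2709, 1762, 5167 and 1842 CPM in 3′ v3 (2.4 ± 0.53, adjusted p = 0.012). Rps21 had 1528 and 1208 CPM in 5′ v1 and 3767, 3699.5, 5949 and 3897 CPM in 3′ v3 (1.66 ± 0.28, adjusted p = 0.0044). Replicate 3 was the highest of the 3′ v3 libraries for all 3, and the 3′ v2 library was higher still, with 22393, 7694 and 11641 CPM. Rps15 was even across the 3′ v3 libraries, at 1182 and 964 CPM in 5′ v1 and 3166, 3249.7, 3364 and 3406 CPM in 3′ v3 (1.62 ± 0.18, adjusted p = 0.0011). Rpl31 was called with a difference of 1.2, and Rpl39l, a paralog of Rpl39, with 3.88 from fewer than 10 UMIs in 5′ v1. Without 5′ v1 replicate 2, Rps29, Rpl38, Rps21, Rpl31 and Rpl39l missed the threshold (adjusted p = 0.059, 0.12, 0.071, 0.068 and 0.13). Without replicate 1, Rpl38 and Rpl39l did (adjusted p = 0.073 and 0.11). Rpl31 also lost its call, by its fold and not its p, without 3′ v3 replicate 3 (adjusted p = 0.0064).

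In the other direction, Rpl15 had 3265 and 3216 CPM in 5′ v1 and 675, 487, 1072 and 481 CPM in 3′ v3 (-2.25 ± 0.34, adjusted p = 0.0029). Rplp0, the stalk protein of the large subunit, had 13871 and 15363 CPM in 5′ v1 and 5507, 4190.3, 5390.3 and 4046 CPM in 3′ v3 (-1.61 ± 0.2, adjusted p = 0.0016). Rpl29 had 3372 and 3323 CPM in 5′ v1 and 1485, 1043, 1512 and 1012 CPM in 3′ v3 (-1.41 ± 0.22, adjusted p = 0.0036). The kits did not overlap for any of the 3. Rps4x and Rps2 passed the test at -1.11 and -1.05 (adjusted p = 0.028 and 0.0076) and were not called because preparation F stood less than 1 below 5′ v1, and both missed the threshold without either 5′ v1 library.

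**Figure D3:**
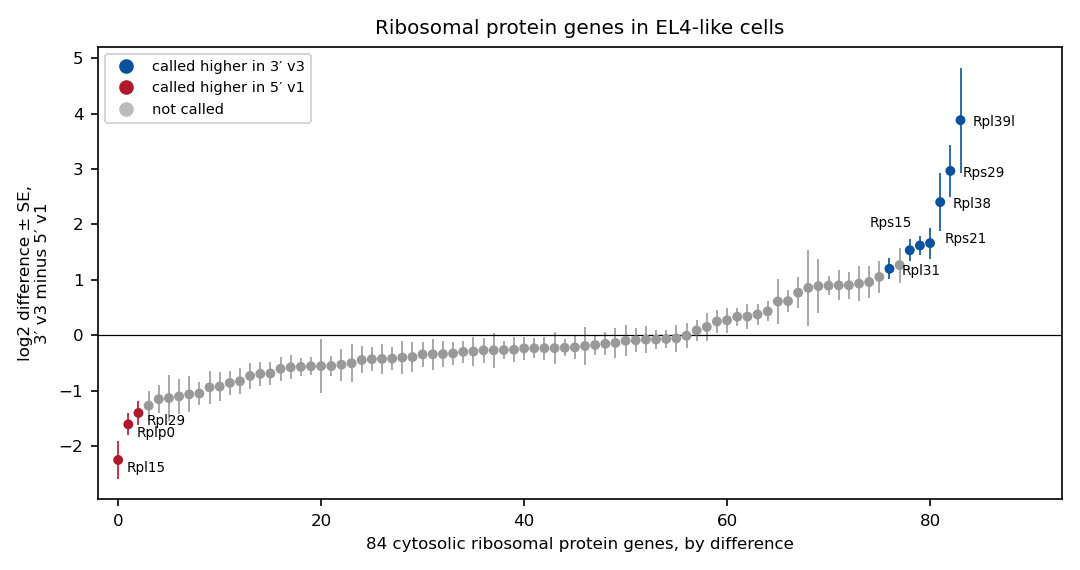
Log2 difference between 3′ v3 and 5′ v1 with its standard error (y axis) for the 84 cytosolic ribosomal protein genes tested, ordered by size (x axis). Blue points are the 7 genes called higher in 3′ v3 and red points the 3 called higher in 5′ v1, with names for those described, and most of the others lie between -1 and 1.

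Of 21 translation factors of the same regulated group, 4 were called higher in 5′ v1 and none higher in 3′ v3, beside 6.27% and 8.26% of all genes. Eef1a1, which delivers aminoacyl-tRNA to the ribosome, had 17632 and 19574 CPM in 5′ v1 and 8749, 6825, 8369.9 and 6799 CPM in 3′ v3 (-1.28 ± 0.19, adjusted p = 0.0028). Eef2, the translocation factor, had 3261 and 3673 CPM in 5′ v1 and 1668, 1659.7, 1594 and 1588 CPM in 3′ v3 (-1.09 ± 0.15, adjusted p = 0.0022). The poly(A)-binding protein gene Pabpc1 had 3976 and 4512 CPM in 5′ v1 and 1478, 1856, 1154 and 1681 CPM in 3′ v3 (-1.46 ± 0.22, adjusted p = 0.0029). Eif3f, an initiation factor subunit, was the fourth (-1.63 ± 0.23, adjusted p = 0.0024). The list held 4.83% and 5.31% of mouse UMIs in 5′ v1 and 3.32%, 3.16%, 3.11% and 3.15% in 3′ v3, without overlap, but its median was -0.12 with preparation F and -0.79 with preparation G, which is not alike in both preparations.

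Copies of ribosomal protein genes that are annotated as pseudogenes, and predicted genes with Gm names, gave more calls toward 5′ v1 than toward 3′ v3, where 6.27% and 8.26% of all genes were called. Of 13 ribosomal pseudogenes tested, 5 (38.5%) were called higher in 5′ v1 and none higher in 3′ v3, with a median of -0.8 (-0.56 with preparation F and -1.09 with preparation G). Of the 10 at 1 CPM or more in a library of each kit, 3 were called higher in 5′ v1, beside 5.17% of all such genes, and the median was -0.39. Rps12-ps3 passed the test toward 3′ v3, with 208 and 214 CPM in 5′ v1 and 334, 398, 374 and 369.8 CPM in 3′ v3 (0.81 ± 0.15, adjusted p = 0.0061), as did Rpl23a-ps3 (1.0 ± 0.31, adjusted p = 0.041). Both missed the threshold without 5′ v1 replicate 1 or 2 (adjusted p = 0.076 and 0.08 for the first, 0.2 and 0.2 for the second), and the second also without 3′ v3 replicate 2 or 4 (adjusted p = 0.06 and 0.063). The pseudogenes together held 0.0552% ± 0.00339 (SD, n = 2) of mouse UMIs in 5′ v1 and 0.0583% ± 0.00753 (SD, n = 4) in 3′ v3, which overlapped. Rpl10-ps3 had 79.2 and 97.3 CPM in 5′ v1 and 16.9, 14.4, 25.2 and 16.7 CPM in 3′ v3 (-2.26 ± 0.23, adjusted p = 0.00089), and the 3′ v2 library 125 CPM, which is above both 5′ v1 libraries. Rpl9-ps6 had 54.1 and 71.1 CPM in 5′ v1 and 15.8, 12.7, 28 and 10.9 CPM in 3′ v3 (-1.89 ± 0.36, adjusted p = 0.0074, and adjusted p = 0.078 without 5′ v1 replicate 2). Of 387 predicted genes tested, 63 (16.3%) were called higher in 3′ v3 and 89 (23.0%) higher in 5′ v1, both above the shares of all genes. Of the 254 at 1 CPM or more in a library of each kit the counts were 13 and 49, where 6.83% and 5.17% of all such genes were called. These shares were not matched for expression level, on which the share called toward 5′ v1 depended. Gm10076 had 27.8 and 18.3 CPM in 5′ v1 and 871, 866, 2511 and 974 CPM in 3′ v3 (5.82 ± 0.68, adjusted p = 0.0013) and 4145 CPM in 3′ v2. Gm14149 and Gm10116 were the reverse, the first with 96.7 and 102 CPM in 5′ v1 and 2.37, 1.26, 2.57 and 1.42 CPM in 3′ v3 (-5.67 ± 0.29, adjusted p = 0.00032) and the second with 649 and 825 CPM in 5′ v1 and 47.5, 42.7, 56.3 and 37.3 CPM in 3′ v3 (-4.0 ± 0.21, adjusted p = 0.00032). Pseudogenes differ little in sequence from their parent genes, so how reads divide between them is uncertain. The paper also lists a longer transcript read for 5′ v1 than for 3′ v3, and the part of read length was not tested.

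Mitochondrially encoded genes were limited as a sum by the rule that chose the cells, so their composition is the measure that remains. They held 4.29% and 4.67% of mouse UMIs in 5′ v1 and 5.67%, 6.59%, 4.27% and 6.14% in 3′ v3, which overlapped. Within them the subunit genes of complex IV, cytochrome c oxidase, differed in direction. The share of mt-Co1 in mitochondrial UMIs was 25.6% and 25.4% in 5′ v1 and 15.8%, 18.4%, 15.9% and 18% in 3′ v3, while that of mt-Co3 was 11.7% and 11.7% in 5′ v1 and 18.5%, 15.7%, 15.8% and 15.6% in 3′ v3. The shares of mt-Co2 and mt-Atp6, by contrast, overlapped between kits.

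Subunit genes of complex I, the NADH dehydrogenase, went both ways. The share of mt-Nd2 was 2.03% and 2.0% in 5′ v1 and 4.46%, 3.97%, 4.39% and 4.3% in 3′ v3, and that of mt-Nd3 0.533% and 0.465% in 5′ v1 and 1.1%, 2.38%, 1.03% and 2.4% in 3′ v3, with preparation G at more than 2 times preparation F. Per mouse UMI the log2 differences were 1.34 ± 0.18 for mt-Nd2 and 2.05 ± 0.47 for mt-Nd3. The limit on mitochondrial UMIs in choosing cells acted on such values, so tests and calls of mitochondrially encoded genes are not read. The share of mt-Nd5 was lower, 1.8% and 1.73% in 5′ v1 and 0.636%, 0.73%, 1.11% and 0.765% in 3′ v3. Among genes of shared transcripts was mt-Atp8, which overlaps mt-Atp6. The share of mt-Atp8 was 1.08% and 1.09% in 5′ v1 and 0.108%, 0.237%, 0.793% and 0.243% in 3′ v3. That of mt-Nd4l, which overlaps mt-Nd4, was 3.21% and 3.07% in 5′ v1 and 0.861%, 0.444%, 2.75% and 0.481% in 3′ v3. Both were below 5′ v1 in every 3′ v3 library and spread widely among those. For both genes replicate 3 was the highest of the 3′ v3 libraries. The class median of 13 genes was 0.28 with preparation F and 0.26 with preparation G, a value that the limit on mitochondrial UMIs in choosing cells had a part in and from which no direction is read.

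**Figure D4:**
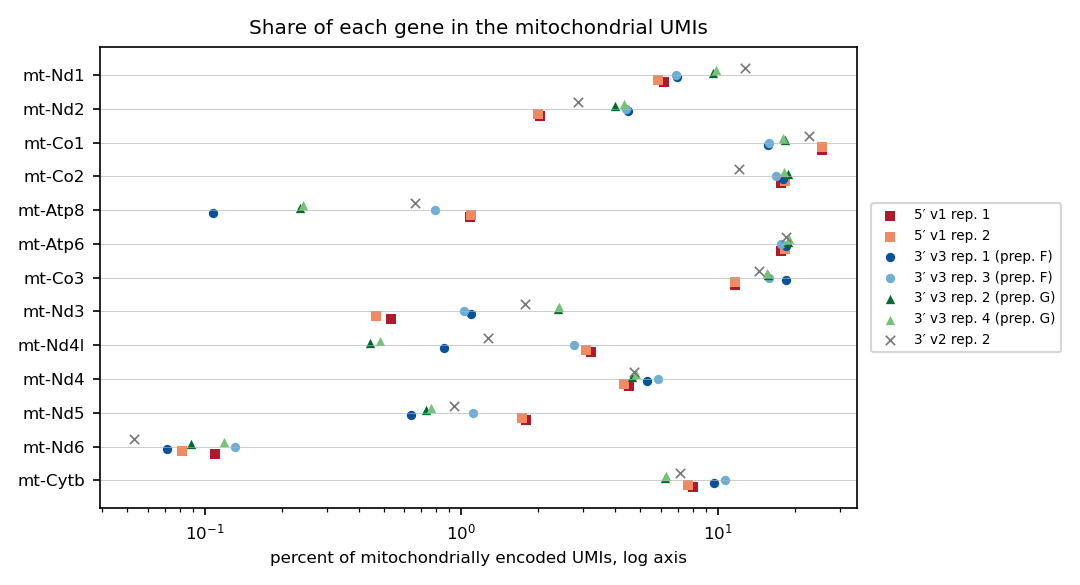
Share of each of the 13 mitochondrially encoded genes in the mitochondrial UMIs of EL4-like cells (percent, log axis), with the genes in the order of the gene list. Both 5′ v1 libraries (squares) lie to the left of all 3′ v3 libraries (circles and triangles) for mt-Nd1, mt-Nd2, mt-Co3, mt-Nd3 and mt-Nd4 and to the right for mt-Co1, mt-Atp8, mt-Nd4l and mt-Nd5.

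Nuclear genes of oxidative phosphorylation gave more calls toward 3′ v3 than toward 5′ v1. Of 75 tested, 12 were called higher in 3′ v3 and 1 higher in 5′ v1, which is 16% and 1.33% beside 8.26% and 6.27% of all genes, with a median of 1.0 with preparation F and 0.22 with preparation G, so the class is not alike. The leading gene was Atp5k, subunit e of ATP synthase, with 56.9 and 40.0 CPM in 5′ v1 and 562, 339.9, 1137 and 385 CPM in 3′ v3 (3.64 ± 0.6, adjusted p = 0.0043, and adjusted p = 0.066 without 5′ v1 replicate 2). Atp5a1, the alpha subunit, had 273 and 221 CPM in 5′ v1 and 854, 754, 826 and 772 CPM in 3′ v3 (1.7 ± 0.17, adjusted p = 0.00091), with the 4 3′ v3 libraries close together. Atp5g3, a subunit c gene, was the one called in 5′ v1, with 1246 and 1003 CPM in 5′ v1 and 538, 466, 511 and 453 CPM in 3′ v3 (-1.19 ± 0.16, adjusted p = 0.0022). It lost that call, by its fold, without 5′ v1 replicate 1 (adjusted p = 0.034).

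Long noncoding RNAs showed no common direction. Of 19 tested in the named list, 1 was called higher in 3′ v3 and 2 higher in 5′ v1, which is 5.26% and 10.5% beside 8.26% and 6.27% of all genes, with a median of -0.07. Malat1, a nuclear RNA whose 3′ end is a triple helix without a poly(A) tail, had 1442 and 1265 CPM in 5′ v1 and 2180.5, 3271, 4273 and 3587 CPM in 3′ v3 (1.3 ± 0.29, adjusted p = 0.013), with every 3′ v3 library above both 5′ v1 libraries, and adjusted p = 0.087 and 0.13 without 5′ v1 replicate 1 and 2. It also lost its call, by its fold, without 3′ v3 replicate 3 (adjusted p = 0.016). Neat1, another nuclear RNA, overlapped between kits, with 146 and 179.6 CPM in 5′ v1 and 144, 197, 116 and 186 CPM in 3′ v3 (-0.02, adjusted p = 0.96). Mir155hg, the host gene of microRNA miR-155, was called higher in 5′ v1 at -1.73 (adjusted p = 0.0018). The gene list holds 2 entries named Dancr, of which ENSMUSG00000106943 was called higher in 5′ v1 (-1.79, adjusted p = 0.0046, and 0.051 without 5′ v1 replicate 2) and ENSMUSG00000053656 was not (-0.49, adjusted p = 0.51), so counts of this gene are split.

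Of 5 tested hosts of small nucleolar RNAs, which release these guides of ribosomal RNA modification from their introns, Snhg9 stood out. It had 0 and 1 UMIs in 5′ v1 and 422, 333, 2113 and 541 UMIs in 3′ v3. Per mouse UMI this is a ratio of 964 (exact 95% interval 173 to 38103, counting error only), and the 3′ v2 library had 121 CPM. Snhg20 and Snhg12 lay the other way at -1.04 and -1.02 (adjusted p = 0.0014 and 0.0016). Snhg20 had 81.7 and 93.9 CPM in 5′ v1 and 43.9, 40.2, 41.5 and 45 CPM in 3′ v3, without overlap, and was called just past the limit of 1, so that it lost its call by its fold without 5′ v1 replicate 2 or 3′ v3 replicate 2 or 3, at adjusted p = 0.031, 0.0041 and 0.0036. Snhg12 was not called because preparation G stood -0.96 from 5′ v1. Riken clone genes, many of them noncoding, were called higher in 3′ v3 for 20 and higher in 5′ v1 for 42 of 379 tested, which is 5.28% and 11.1% beside 8.26% and 6.27% of all genes. Of the 337 at 1 CPM or more in a library of each kit, 10 and 28 were called, beside 6.83% and 5.17% of all such genes. The share called toward 5′ v1 depended on expression level, as given above, and these shares were not matched for level.

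The 10 genes with the largest differences toward 3′ v3 in the less affected preparation, among genes of at least 20 CPM, were Hist1h2ap, Usp50, Gm10076, Etfb, Slpi, Egr1, Fdps, Atp5k, Cdk2ap1 and Rps29. Of these, Egr1 reached 1 CPM in 3′ v3 alone, so its place in the list rests on that kit. Etfb, a subunit of the electron transfer flavoprotein, had 2.2 and 1.41 CPM in 5′ v1 and 156, 66.3, 150.3 and 72.3 CPM in 3′ v3 (5.91 ± 0.58, adjusted p = 0.00084). Fdps, farnesyl diphosphate synthase of the cholesterol pathway, had 5.49 and 5.49 CPM in 5′ v1 and 142, 51.3, 122 and 49.8 CPM in 3′ v3 (4.06 ± 0.59, adjusted p = 0.0026). Cdk2ap1 had 11.6 and 13.2 CPM in 5′ v1 and 125, 99.8, 111 and 87.4 CPM in 3′ v3 (3.09 ± 0.21, adjusted p = 0.00048). Both preparations were far above 5′ v1 for these 3, and preparation F was more than 2 times preparation G for Etfb and Fdps. Usp50 had 1.59 and 1.3 CPM in 5′ v1 and 57.1, 62.4, 136 and 73.3 CPM in 3′ v3 (5.81 ± 0.52, adjusted p = 0.00074), and 753 CPM in 3′ v2. Slpi, a secreted protease inhibitor, was uneven in both kits, with 3.12 and 0.396 CPM in 5′ v1 and 21.7, 9.59, 43.1 and 42.8 CPM in 3′ v3, and lost its call without 5′ v1 replicate 2 (adjusted p = 0.097).

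The 10 toward 5′ v1 were Atp6v0c, Timm23, Gm14149, Tfdp1, Gm10116, Cox6a2, Nutf2, Plp2, Rpl10-ps3 and Ccdc85b. Timm23, a channel subunit for protein import into mitochondria, had 289 and 295 CPM in 5′ v1 and 3.52, 4.88, 12.1 and 4.49 CPM in 3′ v3 (-5.52 ± 0.49, adjusted p = 0.00074), and 8.01 CPM in 3′ v2. Atp6v0c, the proteolipid of the vacuolar proton pump, had 149 and 127 CPM in 5′ v1 and 1.04, 1.1, 6.19 and 1.49 CPM in 3′ v3 (-5.73 ± 0.72, adjusted p = 0.0016). Tfdp1, the dimer partner of E2F factors, had 195 and 188 CPM in 5′ v1 and 4.46, 7.18, 15.1 and 8.78 CPM in 3′ v3 (-4.41 ± 0.42, adjusted p = 0.00081). These genes were nearly lost from the 3′ counts while they were plain in the 5′ counts. Cox6a2, a cytochrome c oxidase subunit of heart and muscle, had 209 and 186 CPM in 5′ v1 and 15.3, 9.04, 26.2 and 13.9 CPM in 3′ v3 (-3.61 ± 0.36, adjusted p = 0.00087). Nutf2, which has a listed pseudogene, had 136 and 124 CPM in 5′ v1 and 11.5, 12.5, 28.5 and 10.9 CPM in 3′ v3 (-3.03 ± 0.39, adjusted p = 0.0019). Without an annotation of this build the sequence shared with other copies could not be looked up for any of them, and its part was not tested.

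Paralogs are related genes that make like proteins, and their ratio within a library does not depend on scaling between libraries. The transcript ends of these genes were not compared here. Of 36 pairs tested, 11 shifted by at least 1 on the log2 scale in both preparations, and 30 had kits that did not overlap, with a median shift of 0.565 in size. Most single genes did not overlap between kits either (3426 above and 3250 below, of 10714). Apart from Rpl39 and Rpl39l, which moved by -2.81 with fewer than 10 UMIs of Rpl39l in 5′ v1, the cytoplasmic actins shifted most. The log2 ratio of Actb to Actg1 was -1.1 and -1.43 in 5′ v1 and 1.05, 1.25, 0.97 and 1.15 in 3′ v3. Actb thus had fewer UMIs than Actg1 in both 5′ v1 libraries and more in all 3′ v3 libraries. Actb itself had 679 and 538 CPM in 5′ v1 and 5157, 3265, 4645 and 3002 CPM in 3′ v3 (2.72 ± 0.32, adjusted p = 0.0013). Actg1 had 1459 and 1446 CPM in 5′ v1 and 2486, 1374, 2373 and 1354 CPM in 3′ v3 (0.38, adjusted p = 0.36).

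The cytosolic chaperones followed the same form, with a log2 ratio of Hsp90aa1 to Hsp90ab1 of -3.33 and -3.53 in 5′ v1 and -1.62, -1.73, -1.96 and -1.71 in 3′ v3. Hsp90aa1, the inducible member, had 337 and 284 CPM in 5′ v1 and 1677, 1459.9, 1479.9 and 1485 CPM in 3′ v3 (2.3 ± 0.18, adjusted p = 0.00061). For the nucleosome-binding proteins Hmgn1 and Hmgn2 the ratio was -0.9 and -0.91 in 5′ v1 and 0.47, 0.58, 0.48 and 0.67 in 3′ v3, where Hmgn2 was the member called, higher in 5′ v1 (-1.84 ± 0.31, adjusted p = 0.0046). Thioredoxins Txn1 and Txn2, the cytosolic and the mitochondrial form, had log2 ratios of 2.22 and 1.83 in 5′ v1 and 3.71, 3.81, 3.75 and 3.75 in 3′ v3, with neither gene called. Beta tubulins Tubb5 and Tubb4b shifted toward Tubb4b in 3′ v3, with ratios of 2.31 and 2.54 in 5′ v1 and 0.86, 1.21, 0.54 and 1.05 in 3′ v3. Tubb4b was called, and missed the threshold without either 5′ v1 library (adjusted p = 0.065 and 0.092).

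For some pairs the shift was smaller or was not seen. The ratio of H3f3a to H3f3b, which encode the same histone H3.3, was -1.11 and -1.04 in 5′ v1 and -0.86, -1.09, -1.04 and -1.18 in 3′ v3, which overlapped between kits. The alpha tubulins Tuba1a and Tuba1b moved by -0.59, Ube2d2a and Ube2d3 by -0.47, Ddx39 and Ddx39b by 0.54, and Pabpc1 and Pabpc4 by -0.78. No pair had members called in opposite directions.

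**Figure D5:**
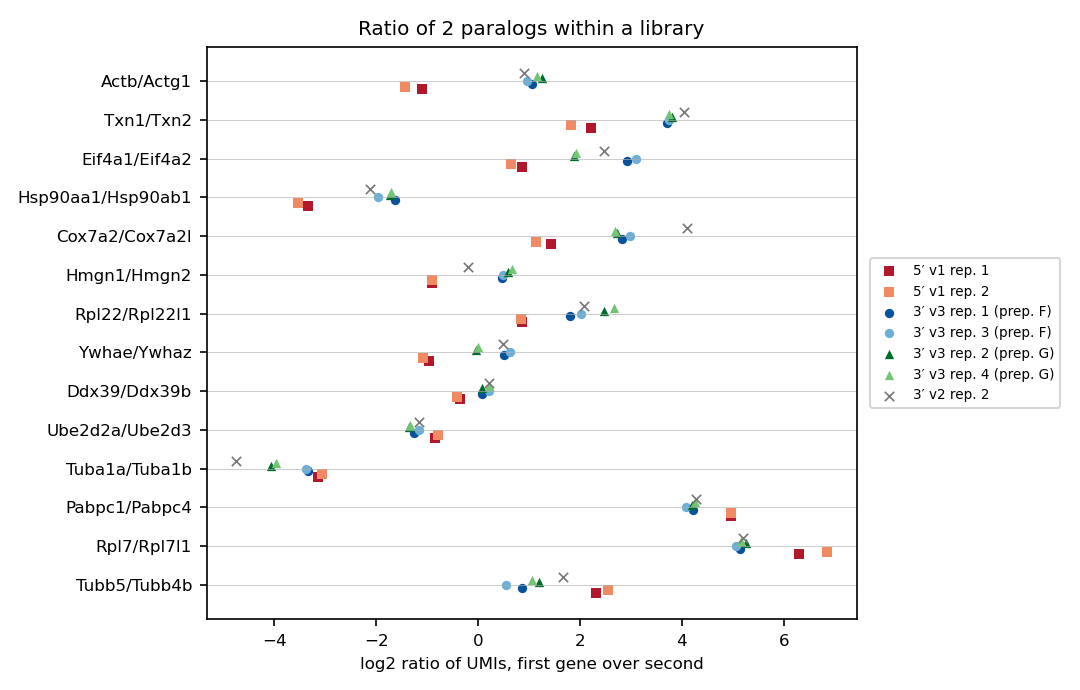
Log2 ratio of UMIs of 2 paralogs within each library (x axis) for 14 of the pairs (rows, first gene over second) that shifted by at least 1 in both preparations or hold a called gene. Rpl39/Rpl39l is left out for its low counts and 1 more pair is not reported here. Squares are 5′ v1 and circles and triangles are 3′ v3 preparations F and G. Actb/Actg1 lies below 0 in both 5′ v1 libraries and at 0.97 to 1.25 in 3′ v3.

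IVA12-like cells of the same libraries, chosen by the reverse of the EL4 rule (2813 cells), were counted in the same way, and the difference between the lines in the kit effect was tested as an interaction. Of 9699 genes tested, 868 (8.95%) had a kit difference that differed between lines by at least 1 at an adjusted p under 0.05. Hist1h2ap was higher in 3′ v3 in both, by 5.36 in IVA12-like cells, and its difference between lines was 1.3 (adjusted p = 0.012). For Hist1h1b the IVA12-like value was 0.69 and the difference between lines 1.49 (adjusted p = 0.00015), and for Hist1h4d 0.32 and 2.23 (adjusted p = 0.0017). Mcm3 and Mcm7 also differed, with 1.03 and 0.79 in IVA12-like cells and differences between lines of 1.36 (adjusted p = 3.6e-05) and 1.4 (adjusted p = 0.00051).

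Several of the leading genes were called in EL4-like cells without a difference between lines that passed the test. Timm23 was at -5.24 in IVA12-like cells and -5.52 in EL4-like cells, Atp6v0c at -5.82 and -5.73, Gm10076 at 5.99 and 5.82, and Usp50 at 5.24 and 5.81. Their interaction tests gave adjusted p-values of 0.091, 0.43, 0.093 and 0.34, which does not show that the lines are equal. Actb was at 1.83 in IVA12-like cells, against 2.72 in EL4-like cells, a difference between lines of 0.8 (adjusted p = 0.00026) that is under the limit of 1. Cox6a2 was a case that differed, at -0.14 against -3.61, a difference between lines of -3.49 (adjusted p = 3.6e-05). Both lines lie in the same libraries and cell mixtures, so they are not independent samples of a kit.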

How the data were processed

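Processed gene by barcode matrices of 7 Chromium libraries were used. The other 3′ v2 library, replicate 1, is not used here. Their values are raw UMI counts, deposited without normalization. The authors aligned and counted reads with Cell Ranger 3.0.2, which uses STAR, against a combined human (hg19) and mouse (mm10) reference (the submitters' processing notes also list Cell Ranger 1.2.0). The study analysed reads both at full depth and downsampled to an equal depth per cell, and which of them the deposited counts hold is not given in the sources used here, so depth per cell may have been set before counting. Cell Ranger counts only reads that map to 1 gene, and genes that share sequence lose UMIs. By the paper's methods the transcript read was longer in 5′ v1 than in 3′ v3, so read length differs with the kit. No mouse annotation or sequence was used here, so locations and sequences are not given. All barcodes were present, without cell calling. EL4-like cells were chosen as the report states. No doublet caller was run. The species and marker limits remove only part of the mixed barcodes and leave doublets of 1 line, and cells of over 3 times the median UMIs were left out as an alternative. Counts were summed per library.

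Genes at 1 CPM or more in at least 2 of 6 libraries were fitted with edgeR 4.0.16 (TMM scaling, quasi-likelihood test, no covariates) in R 4.3.3, with Benjamini-Hochberg adjustment. Preparation means used a prior count of 0.5, and the line by kit interaction used both lines' sums. The fit was run on simulated counts as a check of the code, and the outcome is not reported here. CPM in the text is TMM-scaled. Marker sums use unscaled totals. Total UMIs were 24790710 to 251164949 a library. Intervals are exact 95% (Clopper-Pearson) and cover counting error only. Alternatives were 3 other scalings, 2 filters, DESeq2 1.42.0, glmTreat, summed preparations, 5 other cell limits and each library left out. Added after seeing the data were the removal of large barcodes, a filter on a mean of 1 CPM and a restriction to genes at 1 CPM in a library of each kit. Members and lists were chosen with earlier results of these data known. Named genes were the 10 called genes of each direction with the largest difference in the less affected preparation (mean of 20 CPM or more), up to 3 tested members of each class and direction, called or not (5 CPM or more), and paralog pairs with 1 called member. Some genes counted in the classes are not reported here by name. Genes named as class examples beyond this were chosen after their values were seen.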

Additional observations from a re-analysis of the deposited data

Results flagged for a closer look

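Values of 1 library stood apart from the other 3 of 3′ v3 for 10 of 155 class shares and gene levels examined, by Dixon's test at its 95% limit, where chance marks about 1 in 20 groups. In 9 of the 10 the library was replicate 3, which held the most UMIs in total (251164949). Its median per EL4-like cell, 28510.5 UMIs, was below those of replicates 1 and 2 (29430 and 29399). There the levels were 38.4 CPM for 1810009A15Rik, 6.19 CPM for Atp6v0c, 35.6 CPM for Dlgap5, 2511 CPM for Gm10076, 2.78 CPM for Gm5786, 28.5 CPM for Nutf2, 5949 CPM for Rps21, 9516 CPM for Rps29 and 12.1 CPM for Timm23. The remaining one was Hsp90aa1 in replicate 1, at 1677 CPM. Of these genes, 1810009A15Rik was not called in the main fit (2.6, adjusted p = 0.055). It met the rule for a call without replicate 3 (1.58, adjusted p = 0.0026). None of the others lost its call without replicate 3. Malat1, Rpl31 and Snhg20 did lose theirs, each by its fold with an adjusted p of 0.016, 0.0064 and 0.0036. The part of library size was not tested.

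The kit difference of 29 of the 123 named genes tested differed between EL4-like and IVA12-like cells by the interaction test. Of all genes tested, 868 of 9699 (8.95%) did. Most named genes were picked by their kit difference in EL4-like cells of these data, which can raise this count. Values are EL4-like minus IVA12-like on the log2 scale. Among histone genes these were Hist1h1b (1.49), Hist1h2ap (1.3), Hist1h2bj (1.52), Hist1h3e (1.54), Hist1h4d (2.23) and Hist2h2ac (2.27). Genes of positive value among the others were 4732419C18Rik (1.04), Ddx39 (1.11), Etfb (1.52), Fdps (1.37), Gm13205 (1.94), Mcm3 (1.36), Mcm7 (1.4), Mrpl34 (1.24), Rpl29 (1.4), Rpl39l (3.18) and Slpi (4.16), and genes of negative value were Cox6a2 (-3.49), Gm10116 (-1.57), Gm14149 (-2.92), Hmgn2 (-1.04), Rplp0 (-1.02), Rps18-ps3 (-3.36) and Snhg12 (-1.17). The T cell marker genes Lat (-3.89), Lck (-2.33), Tcf7 (-2.02), Thy1 (-3.68) and Zap70 (-2.94) were also marked. In IVA12-like cells alone the log2 differences of these 5 were 2.78, 1.63, 2.45, 3.07 and 3.42, in the same order, with adjusted p = 0.015, 0.19, 0.049, 0.012 and 0.077. Human UMIs took a median of 0.0436% and 0.031% of an IVA12-like cell's UMIs in 5′ v1 and 0.492%, 0.218%, 1.04% and 0.377% in 3′ v3. The part of RNA from other cells in these values was not tested.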

How the results depend on the processing

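The counts of genes called higher in 3′ v3 and in 5′ v1 were 574 and 382 with a filter of 10 CPM, 286 and 291 when tested against a log2 difference of 1 (glmTreat), and 337 and 306 with the libraries of each preparation summed. Leaving out 1 library gave 424 to 944 and 398 to 675. Scaling by total mouse UMIs, under which the median of all genes was 0.14, gave 1032 and 550. DESeq2's Wald test gave 918 and 679. The count of genes that differed between lines was 1551 without a filter, 361 with 10 CPM and 603 to 951 with 1 library left out. The clustered histone median was 1.10 without a filter, 1.77 with 10 CPM and 0.62 over genes at 1 CPM in a library of each kit, a restriction chosen after seeing the data. The predicted gene median was 0.20, -0.41 and -0.37 under the same 3 settings and -0.28 to 0.11 with 1 library left out. The mitochondrial median was 0.14 without a filter and 0.0921 with a mitochondrial limit of 5%, where the difference in the share of mitochondrial UMIs turned to -0.0982 percentage points. The named lncRNA median was -0.20 without a filter and -0.18 to 0.0429 with 1 library left out. The predicted gene and named lncRNA medians, -0.12 and -0.07 in the tested set, thus changed sign under some settings. Other medians that changed sign were those of H3 genes, to -1.65 with 10 CPM and -1.2 over genes in both kits, of immediate early genes, to -0.0675 and -0.0125, and of B cell markers and snoRNA hosts, to -0.48 and -0.44 over genes in both kits. The 10 CPM filter and the restriction to both kits test fewer genes, and other causes were not tested. No named gene past the threshold turned its direction under any setting. Of all 132 named genes, 56 passed the threshold in the main fit and missed it under at least 1 setting, most often without a 5′ v1 library. The 132 include genes that did not pass it in the main fit, such as Actg1 and Ier2, so the share among those that passed is larger. No paired analysis was possible because the numbers of the replicates follow accession order and tie no library of one kit to one of the other. Counts of few UMIs limit the histone H3, pseudogene and Snhg9 values.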

Other observations

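Immediate early genes respond to stimulation of the cell within minutes. Among them, Egr1 had 0.441 and 0.735 CPM in 5′ v1 and 11.6, 75.8, 8.27 and 71.8 CPM in 3′ v3. It was called, but it reached 1 CPM in 3′ v3 alone and so was tested only through the kit where it is high. The 3′ v2 library had 0.572 CPM of Egr1, at the 5′ v1 level. Preparation G (replicates 2 and 4) was above preparation F (replicates 1 and 3). Nr4a1, induced by T cell receptor signals, had 4.61 and 6.05 CPM in 5′ v1 and 8.64, 38.1, 8.12 and 25.4 CPM in 3′ v3 (1.91, adjusted p = 0.075), with the same split. It passed the threshold without 3′ v3 replicate 1 or 3 (adjusted p = 0.046 and 0.034). Leaving out either 5′ v1 library ended the call of Egr1. Junb was even across the 3′ v3 libraries, with 27.2 and 24.7 CPM in 5′ v1 and 36.1, 40.2, 38 and 37.3 CPM in 3′ v3 (0.55, adjusted p = 0.014, and 0.084 and 0.16 without 5′ v1 replicate 1 and 2). The difference between preparations was not tested. Jun was called higher in 3′ v3 (1.85, adjusted p = 0.0059, and 0.073 without 5′ v1 replicate 1) and Ier2 overlapped between kits, with 52.5 and 48.9 CPM in 5′ v1 and 48.7, 52, 47.9 and 47.6 CPM in 3′ v3 (-0.05, adjusted p = 0.78). Of 14 such genes tested, 3 were called higher in 3′ v3, beside 8.26% of all genes, and of the 11 at 1 CPM or more in a library of each kit 2 were called, beside 6.83% of all such genes, with a median of -0.0125.

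Mitochondrial ribosomal protein genes, which the nucleus encodes, were called higher in 3′ v3 for 7 and higher in 5′ v1 for 1 of 77 tested, which is 9.09% and 1.3% beside 8.26% and 6.27% of all genes, with a median of 0.67 with preparation F and 0.01 with preparation G. Mrps5 had 47.3 and 36.8 CPM in 5′ v1 and 115, 143, 164 and 146 CPM in 3′ v3 (1.76 ± 0.2, adjusted p = 0.0013). Taf7l, a TFIID subunit paralog, had 135 and 116 UMIs in 5′ v1 and 1, 1, 11 and 3 UMIs in 3′ v3, a rate 55.5-fold higher in 5′ v1 (exact 95% interval 33.5 to 98.5, counting error only). It was chosen after its values were seen.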
